A study of Mus musculus with 12 samples.

Results

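Oxygen supply and sugar breakdown are linked in mammalian cells through a set of genes under shared control, and 32 of these genes were followed here in cultured mouse hepatic stellate cells, the vitamin A-storing pericytes of the liver which become collagen-secreting myofibroblasts in an injured liver. The 32 genes were taken by symbol from the probe annotation, with the brightest detected probe standing for each gene. There were 19 genes of glycolysis and its regulation and 13 other hypoxia-responsive genes, of 13091 genes measured in all. A probe was found for 29 of the 32, and 28 were measured, 16 of the 19 glycolysis genes and 12 of the 13 others. Hk2, Gpi1 and Eno1 have no probe named here. Bnip3, a mitophagy receptor, was above background on 0 of the 12 arrays. Of the 28 measured genes 25 were above background on all 12 arrays, while the lactate exporter gene Slc16a3 was detected on 9, Pfkfb3 on 10 and Ankrd37 on 11.

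RNA was hybridised to 12 single-colour Illumina arrays in 4 groups of 3. All mice carried a floxed Pdgfrb gene, which encodes the beta receptor of platelet-derived growth factor, and all samples are labelled as 129S4/SvJae in background. Knockout mice also carried a Cre transgene from an FVB line under the promoter of Gfap, a glial gene that stellate cells share, and the mice called wild type lacked Cre. Isolated cells were grown in medium with 10% fetal bovine serum and then received PDGF-B (10 ng/ml) or only the albumin vehicle in medium without serum. The labels give neither the length of treatment nor the age of the mice, and state no oxygen level. Each title holds a code shared by an array with and an array without PDGF-B, and cells of one code are called a preparation here (P11, P393 and P530 wild type, P338, P522 and P524 knockout). Whether a code is an animal, a pool or a culture is not stated, so the p-values rest on the spread among these arrays, some of which may be technical.

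When oxygen is short, prolyl hydroxylases no longer mark the alpha subunits of the hypoxia-inducible factors for destruction, and the factors accumulate and bind a short element with the core ACGTG or GCGTG near their target genes. Glycolysis turns glucose into pyruvate in the cytosol, and lactate dehydrogenase and lactate export let it run without mitochondrial respiration. Most glycolytic enzymes are targets of these factors, as are genes for vessel tone, acid balance, collagen hydroxylation and the hydroxylases themselves. Activation of stellate cells to myofibroblasts is known to be accompanied by higher glycolysis.

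The core element was looked for on both strands in the 250 bases before the first listed start of each gene (RefSeq promoter table, GRCm38.p6), which held 30 of the 32 genes, without Ndrg1 and Bnip3l. ACGTG was present in 16 of 30 (53.3%), against 16.6% of the promoters of 27025 genes. Either core was present in 25 of 30 (83.3%), against 38.6% of all genes, with 78.9% of the 19 glycolysis genes and 90.9% of 11 other hypoxia genes. In 3 of the 30 (10%) ACGTG lay within CACGTG, the E-box that other factors also bind, against 6.05% of all genes. A match describes the letters and shows no binding. The 6 promoters below belong to genes whose values are described further on and were chosen after those values were seen. They are the glucose transporter gene Slc2a1 (chr4:119108495-119108744, plus strand), the phosphofructokinase genes Pfkl (chr10:78009808-78010057, minus strand) and Pfkp (chr13:6648772-6649021, minus strand), the aldolase gene Aldoc (chr11:78322823-78323072, plus strand), the adrenomedullin gene Adm (chr7:110627407-110627656, plus strand) and the carbonic anhydrase gene Car9 (chr4:43506776-43507025, plus strand). Each is printed 5′ to 3′ on the strand of the gene, ending just before the start, and the capitals mark either core or its reverse complement, which is CACGT for the first core, while the reverse complement of the other core is CACGC.
Slc2a1: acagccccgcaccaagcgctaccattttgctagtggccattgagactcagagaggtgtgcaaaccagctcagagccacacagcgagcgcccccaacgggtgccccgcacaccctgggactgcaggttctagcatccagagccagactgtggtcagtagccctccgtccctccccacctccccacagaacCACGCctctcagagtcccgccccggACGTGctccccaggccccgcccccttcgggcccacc
Pfkl: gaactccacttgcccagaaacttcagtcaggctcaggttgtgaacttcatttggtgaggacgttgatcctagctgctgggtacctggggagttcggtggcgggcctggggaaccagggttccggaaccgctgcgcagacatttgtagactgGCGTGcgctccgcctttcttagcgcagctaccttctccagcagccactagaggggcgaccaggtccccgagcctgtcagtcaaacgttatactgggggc
Pfkp: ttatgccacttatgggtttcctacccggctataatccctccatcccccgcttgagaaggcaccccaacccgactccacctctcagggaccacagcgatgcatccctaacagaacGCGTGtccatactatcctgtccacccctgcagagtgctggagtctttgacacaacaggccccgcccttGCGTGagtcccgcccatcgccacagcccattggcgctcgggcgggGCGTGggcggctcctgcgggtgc
Aldoc: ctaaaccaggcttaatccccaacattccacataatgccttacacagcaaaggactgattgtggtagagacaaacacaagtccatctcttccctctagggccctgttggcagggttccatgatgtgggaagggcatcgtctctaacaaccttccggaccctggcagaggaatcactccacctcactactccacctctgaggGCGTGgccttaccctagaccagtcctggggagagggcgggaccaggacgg
Adm: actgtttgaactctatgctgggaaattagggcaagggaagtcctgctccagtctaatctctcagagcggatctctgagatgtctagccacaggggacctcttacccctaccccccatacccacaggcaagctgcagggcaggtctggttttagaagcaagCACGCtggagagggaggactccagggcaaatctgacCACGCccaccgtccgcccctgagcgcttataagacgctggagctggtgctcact
Car9: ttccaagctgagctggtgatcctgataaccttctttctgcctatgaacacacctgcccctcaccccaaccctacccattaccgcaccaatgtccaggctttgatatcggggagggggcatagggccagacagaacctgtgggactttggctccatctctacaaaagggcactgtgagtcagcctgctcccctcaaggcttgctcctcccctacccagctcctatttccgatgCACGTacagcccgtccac
The first base of the ACGTG match in Slc2a1 lay 36 bases before the start, and that of the CACGT match in Car9 lay 18 bases before it. Pfkp held 3 matches to GCGTG and Adm held 2 matches to CACGC, and neither held ACGTG. Hk1, Gpi1, Aldoa, Tpi1 and Vldlr held neither core in this window, though Hk1 and Aldoa held a match before another listed start.

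Pdgfrb, the targeted gene, had log2 intensities of 6.41 without and 6.51 with PDGF-B in P338, 7.59 and 7.73 in P522, 7.16 and 6.97 in P524, 6.67 and 6.81 in P11, 6.77 and 6.91 in P393 and 7.59 and 7.79 in P530. Knockout and wild-type arrays overlapped. Whether the probe lies in the removed exons is not known here, so these values are no check of the labels. Among marker genes, 12 of 16 stellate genes were measured, but not Lrat, Gfap, Rgs5 and Lhx2. Macrophage genes (10 of 12 measured, 9 on all arrays) and mesothelial genes (8 of 9, 7 on all arrays) were also present. Their median log2 intensities were 11.21 and 8.15, against 7.96 for the stellate genes and 6.93 for all genes. The share of each cell type was not measured. Hepatocyte genes were measured for 3 of 8, with Alb on 0 arrays, and lymphocyte genes for 2 of 6. Endothelial genes were measured for 7 of 7, with 3 on all arrays and a median log2 intensity of 6.09. All 8 mesothelial genes were lowest in P522, with a mean deviation from the 12-array mean of -1.44 on the log2 scale, against 0.82 in P338, 0.59 in P524 and -0.14 to 0.11 in the wild-type preparations. Of the 10 macrophage genes 9 were lowest in P524, with a mean deviation of -0.63 against 0.05 to 0.20 in the other 5 preparations. The 12 stellate genes also differed, with the lowest mean deviation in P522 (-0.28) and the highest in P524 (0.24). These 2 knockout preparations, P522 and P524, also set many of the differences described below, and the part of the marker-bearing cells in them was not tested. In such bulk RNA, fewer cells of a type and less RNA per cell cannot be told apart.

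The 28 genes differed mainly between cell preparations of the same genotype, in a test whose error is the spread within a preparation, which is not the spread used for the treatment and genotype tests. In a test over the contrasts between preparations of one genotype, with the arrays of a preparation as repeats (limma moderated F test, adjusted p under 0.05), 19 of 28 genes passed (67.9%), against 46.3% of all 13091 genes. Of the glycolysis genes 9 of 16 passed (56.2%) and of the other hypoxia genes 10 of 12 (83.3%). The difference between those shares was not tested. Without P522 the count was 11 of the 28 (39.3%) and 4235 of all genes (32.4%), and without P524 it was 19 of the 28 (67.9%) and 3660 of all genes (28.0%). For each gene the largest difference between preparation means within a genotype had a median of 0.45 on the log2 scale over the glycolysis genes, 0.64 over the other hypoxia genes and 0.30 over all genes. The median log2 intensities of these genes were 8.91, 8.18 and 6.93, and the part of the brightness in these differences was not tested. Each adjusted p given below with a difference between preparations is that of the F test over all contrasts in both genotypes. It is not a test of the named pair. That pair is the one with the largest difference, picked afterwards, and neither the p nor the SE allows for that choice.

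**Figure D1:**
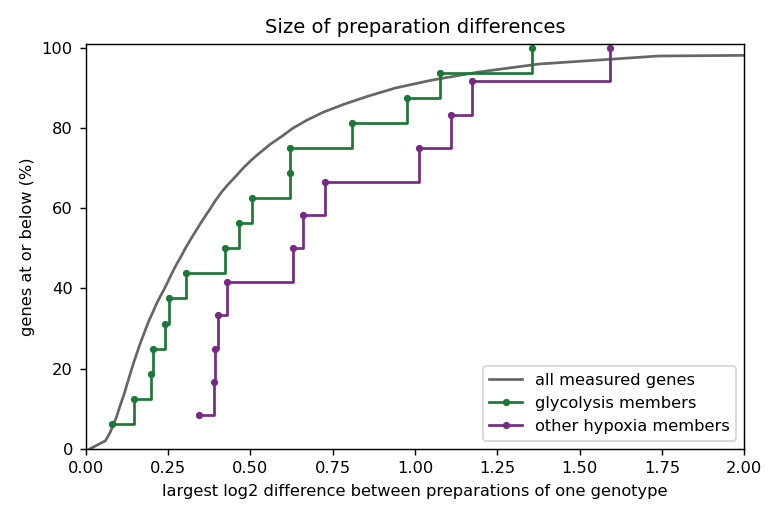
Cumulative share of genes (percent, vertical axis) by the largest difference in log2 intensity between preparations of one genotype (horizontal axis, shown up to 2). The grey line is all measured genes, green steps are the 16 glycolysis genes and purple steps the 12 other hypoxia genes, whose medians are 0.30, 0.45 and 0.64.

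**Figure D2:**
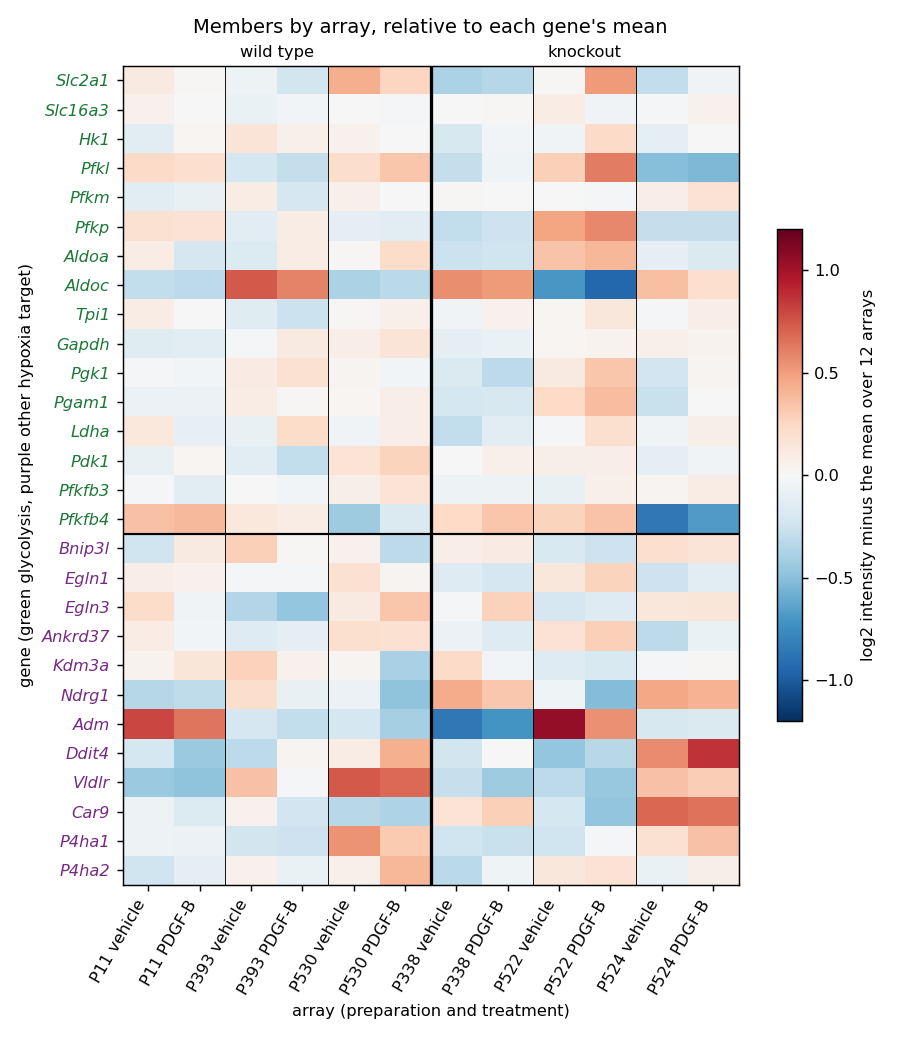
Log2 intensity of the 28 measured genes (rows) on the 12 arrays (columns) minus the mean of each gene over all arrays, red above and blue below the mean. Arrays of the same preparation look alike in most rows, and P522 and P524 hold many of the strongest colours.

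Glucose entry and the first committed step showed the pattern in the glycolysis group. Slc2a1, the basal glucose transporter, had log2 intensities of 9.55 without and 9.59 with PDGF-B in P338, 9.95 and 10.44 in P522, 9.64 and 9.89 in P524, 10.05 and 9.95 in P11, 9.87 and 9.71 in P393 and 10.37 and 10.19 in P530. P338 was lowest and the highest single array was P522 with PDGF-B, and P522 exceeded P338 by 0.62 ± 0.10 (SE), 1.54-fold (adjusted p = 0.00106, limma). Phosphofructokinase, which commits sugar to glycolysis, is encoded by liver, muscle and platelet types. Pfkl, the liver type, had log2 intensities of 9.29 without and 9.53 with PDGF-B in P338, 9.86 and 10.19 in P522, 9.07 and 9.04 in P524, 9.81 and 9.78 in P11, 9.36 and 9.30 in P393 and 9.79 and 9.91 in P530. P524 lay below and P522 above the other knockout preparation on both arrays, a difference of 0.97 ± 0.10 or 1.97-fold (adjusted p = 6.36e-05, limma). A second, dimmer Pfkl probe differed by only 0.01 between them. Pfkp, the platelet type, had log2 intensities of 8.34 without and 8.38 with PDGF-B in P338, 9.10 and 9.21 in P522, 8.35 and 8.35 in P524, 8.82 and 8.80 in P11, 8.51 and 8.72 in P393 and 8.52 and 8.5 in P530. Both P522 arrays exceeded all 10 others, and P522 was above P524 by 0.81 ± 0.08 (adjusted p = 7.30e-05, limma), with 0.57 on a second probe. Pfkm, the muscle type, had a largest difference within a genotype of 0.15 (adjusted p = 0.453, limma). For P11 minus P530 its brightest probe gave -0.15, and dimmer probes gave -0.31 and -0.13.

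Aldolase splits the hexose bisphosphate, and its isoenzyme genes ran in opposite directions in P522. Aldoa, the main form outside liver and brain, had log2 intensities of 10.70 without and 10.72 with PDGF-B in P338, 11.30 and 11.36 in P522, 10.84 and 10.78 in P524, 11.05 and 10.75 in P11, 10.79 and 11.05 in P393 and 10.97 and 11.18 in P530. P522 was the highest and P338 the lowest of the knockout preparations, 0.62 ± 0.12 apart (adjusted p = 0.00861, limma). Aldoc, the form known from brain, had log2 intensities of 7.79 without and 7.73 with PDGF-B in P338, 6.53 and 6.28 in P522, 7.58 and 7.42 in P524, 6.93 and 6.92 in P11, 7.96 and 7.82 in P393 and 6.85 and 6.90 in P530. Here P522 was the lowest of all 6 preparations, and P338 exceeded it by 1.36 ± 0.08 or 2.56-fold (adjusted p = 8.43e-07, limma). Aldoc also separated wild-type cells, with P393 above P530 by 1.02 and no overlap of their arrays.

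Pgk1, phosphoglycerate kinase, had log2 intensities of 10.48 without and 10.34 with PDGF-B in P338, 10.77 and 10.99 in P522, 10.43 and 10.69 in P524, 10.64 and 10.63 in P11, 10.76 and 10.84 in P393 and 10.69 and 10.62 in P530. Its P522 arrays lay above those of P338 by 0.47 ± 0.10 (adjusted p = 0.0195, limma). Pgam1, phosphoglycerate mutase, had log2 intensities of 8.78 without and 8.79 with PDGF-B in P338, 9.22 and 9.36 in P522, 8.72 and 8.99 in P524, 8.91 and 8.92 in P11, 9.08 and 9.0 in P393 and 9.01 and 9.06 in P530. P522 exceeded P338 by 0.51 ± 0.08 (adjusted p = 0.00341, limma). The remaining enzymes Hk1, Tpi1, Gapdh and Ldha did not pass, with largest differences of 0.20, 0.24, 0.25 and 0.30 and adjusted p-values of 0.173, 0.0863, 0.0531 and 0.238 (limma). Aldoa, Gapdh, Ldha, Pgam1, Pgk1 and Tpi1 have near-identical pseudogene copies, and binding of transcripts of those copies to these probes was not tested.

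Among regulators of flux, Pfkfb4, a bifunctional enzyme that sets the level of the sugar activator of phosphofructokinase, had log2 intensities of 8.96 without and 9.06 with PDGF-B in P338, 9.0 and 9.07 in P522, 7.87 and 8.05 in P524, 9.08 and 9.12 in P11, 8.85 and 8.82 in P393 and 8.30 and 8.55 in P530. P524 was the lowest preparation on both arrays, below P522 by 1.08 ± 0.09 or 2.11-fold (adjusted p = 6.60e-06, limma). A second, dim Pfkfb4 probe differed by 0.12 in the same direction. Pfkfb3, of the same family, had a largest difference of 0.20 (adjusted p = 0.235) and Slc16a3 one of 0.08 (adjusted p = 0.925), both near background. Pdk1, the kinase that holds pyruvate back from mitochondria, had log2 intensities of 6.84 without and 6.90 with PDGF-B in P338, 6.91 and 6.92 in P522, 6.73 and 6.80 in P524, 6.75 and 6.86 in P11, 6.71 and 6.54 in P393 and 7.0 and 7.10 in P530. Wild-type P530 exceeded P393 by 0.42 ± 0.09 (adjusted p = 0.0169, limma).

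P522 was the highest knockout preparation in 8 of the 9 glycolysis genes that passed, Aldoc being the exception. It led P338 only narrowly for Pfkfb4 (9.04 against 9.01) and Pdk1 (6.91 against 6.87). The 9 genes were picked by a test on the same arrays, so this count follows in part from that choice. The matching share of all genes that passed was not computed. Over all 16 measured glycolysis genes P522 lay above P338 in 14 and above P524 in 12, against 48.3% of all genes in each. These counts, and the shares of all genes, depend on the scaling between arrays. With arrays scaled to a common median in place of quantile normalization the counts became 9 (56.2%) and 5 (31.2%) of 16. The shares of all genes became 26.5% and 31.6%. The median gene moved by 0.12 and -0.13 on the log2 scale (P338 minus P522 and P522 minus P524). Under that scaling the differences named above kept their direction, but the difference was 0.30 for Slc2a1 (adjusted p = 0.130), 0.55 for Pfkl, 0.39 for Pfkp, 0.29 for Aldoa, 0.19 for Pgam1, 0.13 for Pgk1, 0.19 for Pdk1 (adjusted p = 0.252), 0.68 for Pfkfb4 and 1.47 for Aldoc. Without P522 the calls of Pfkp (adjusted p = 0.102), Aldoa (0.605), Pgk1 (0.376) and Pgam1 (0.557) were lost. Leaving out either P522 array alone also ended the calls of Aldoa and Pgk1, and leaving out its vehicle array that of Pgam1 (adjusted p = 0.0505). The Pdk1 call was lost without P530 (adjusted p = 0.214) or P393 (0.0557), or without the PDGF-B array of either.

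**Figure D3:**
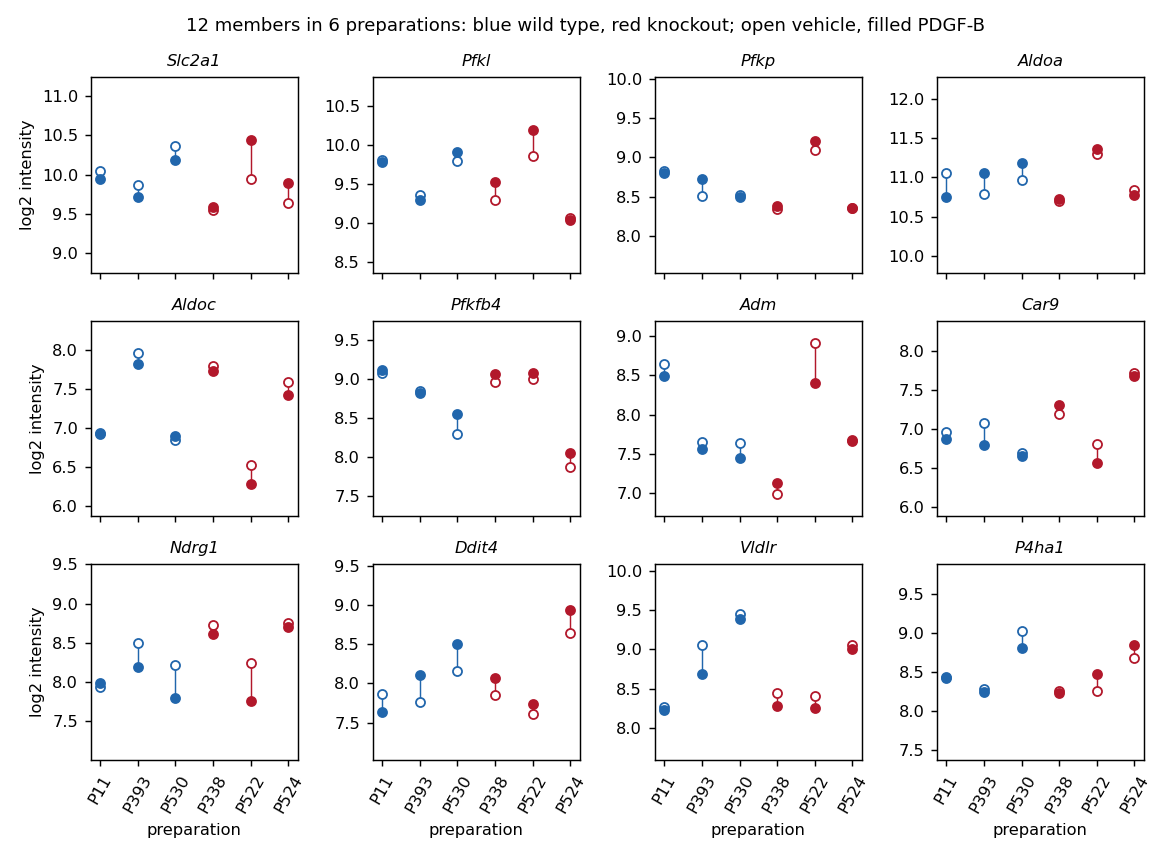
Log2 intensity (vertical axes, each spanning 2.5) of 12 genes in the 6 preparations (horizontal axis), with wild type in blue, knockout in red, open points for vehicle and filled points for PDGF-B, joined within a preparation. P522 is highest for Pfkl, Pfkp and Aldoa and lowest for Aldoc, and for most genes the preparations lie further apart than the joined points.

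Of the 10 other hypoxia genes that passed, P524 was the highest knockout preparation in 6 and P522 in 4, and P530 was the highest wild-type preparation in 7. These 10 genes too were picked by a test on the same arrays. The matching shares of all genes that passed were not computed, so these counts show no trait particular to the list. Over all 12 measured genes P522 lay above P338 in 5 and above P524 in 4, against 48.3% of all genes in each. With median scaling it did so in 4 and 3, against 26.5% and 31.6% of all genes. The difference in order between the glycolysis and the other hypoxia genes was not tested.

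Signalling and stress genes passed in 4 of 4, against 46.3% of all genes, with a median largest difference of 1.14. Adm encodes adrenomedullin, a vasodilator peptide induced by hypoxia, and had log2 intensities of 6.99 without and 7.13 with PDGF-B in P338, 8.91 and 8.40 in P522, 7.66 and 7.68 in P524, 8.65 and 8.49 in P11, 7.65 and 7.56 in P393 and 7.64 and 7.45 in P530. P522 exceeded P338 by 1.59 ± 0.13 or 3.01-fold (adjusted p = 1.03e-05, limma), and in wild type P11 was above P530 by 1.03. Ddit4, an inhibitor of growth signalling through mTOR, had log2 intensities of 7.85 without and 8.07 with PDGF-B in P338, 7.61 and 7.74 in P522, 8.64 and 8.94 in P524, 7.87 and 7.63 in P11, 7.76 and 8.11 in P393 and 8.16 and 8.5 in P530. P524 was highest and exceeded P522 by 1.11 ± 0.13 or 2.16-fold (adjusted p = 0.000200, limma). Ndrg1, a stress-responsive gene, had log2 intensities of 8.73 without and 8.61 with PDGF-B in P338, 8.24 and 7.76 in P522, 8.75 and 8.70 in P524, 7.94 and 7.98 in P11, 8.5 and 8.19 in P393 and 8.21 and 7.80 in P530. P524 was above P522 by 0.73 ± 0.12 (adjusted p = 0.00183, limma), by 0.69 on a second probe, and by 1.12 with median scaling. Vldlr, the very-low-density lipoprotein receptor, had log2 intensities of 8.44 without and 8.28 with PDGF-B in P338, 8.40 and 8.25 in P522, 9.06 and 9.0 in P524, 8.27 and 8.23 in P11, 9.06 and 8.69 in P393 and 9.45 and 9.39 in P530. Wild-type P530 exceeded P11 by 1.17 ± 0.09 or 2.26-fold (adjusted p = 9.72e-06, limma), and all 3 other kept probes had the same direction.

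The acid and collagen enzymes also passed in 3 of 3, against 46.3% of all genes. Car9, a surface carbonic anhydrase that exports acid and a widely used hypoxia marker, had log2 intensities of 7.19 without and 7.31 with PDGF-B in P338, 6.81 and 6.56 in P522, 7.71 and 7.68 in P524, 6.96 and 6.87 in P11, 7.08 and 6.80 in P393 and 6.69 and 6.66 in P530. P524 was the highest preparation and exceeded P522 by 1.01 ± 0.10 or 2.02-fold (adjusted p = 0.000159, limma). P4ha1, a catalytic subunit of the collagen prolyl hydroxylase, had log2 intensities of 8.26 without and 8.23 with PDGF-B in P338, 8.26 and 8.47 in P522, 8.68 and 8.84 in P524, 8.44 and 8.42 in P11, 8.28 and 8.25 in P393 and 9.03 and 8.81 in P530. P530 was above P393 by 0.66 ± 0.09 (adjusted p = 0.000249, limma), and by 0.27 with median scaling. P4ha2, the alternative subunit, had log2 intensities of 8.44 without and 8.72 with PDGF-B in P338, 8.91 and 8.94 in P522, 8.69 and 8.84 in P524, 8.53 and 8.66 in P11, 8.82 and 8.69 in P393 and 8.83 and 9.17 in P530. P530 exceeded P11 by 0.40 ± 0.11 (adjusted p = 0.0227, limma), a call lost without P338 (adjusted p = 0.0605), without P522 (0.0679) or without any of 5 single arrays (0.0544 to 0.0804), namely both of P524, the vehicle arrays of P338 and P522 and the PDGF-B array of P530.

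Oxygen-sensing and feedback genes passed in 3 of 4, against 46.3% of all genes. Egln1 and Egln3 encode prolyl hydroxylases that mark the hypoxia-inducible factors, and their order differed. Egln1 had log2 intensities of 6.32 without and 6.27 with PDGF-B in P338, 6.61 and 6.74 in P522, 6.23 and 6.34 in P524, 6.55 and 6.52 in P11, 6.46 and 6.46 in P393 and 6.66 and 6.5 in P530. P522 exceeded P524 by 0.39 ± 0.08 (adjusted p = 0.00979, limma). Egln3 had log2 intensities of 6.91 without and 7.2 with PDGF-B in P338, 6.72 and 6.77 in P522, 7.06 and 7.06 in P524, 7.14 and 6.88 in P11, 6.57 and 6.45 in P393 and 7.03 and 7.25 in P530. Here wild-type P530 exceeded P393 by 0.63 ± 0.11 (adjusted p = 0.00388, limma), and P522 was the lowest knockout preparation. Ankrd37, an ankyrin-repeat gene, had log2 intensities of 6.19 without and 6.10 with PDGF-B in P338, 6.43 and 6.54 in P522, 5.94 and 6.18 in P524, 6.35 and 6.22 in P11, 6.10 and 6.13 in P393 and 6.45 and 6.44 in P530. P522 was above P524 by 0.43 ± 0.09 (adjusted p = 0.00590, limma). Median scaling ended the calls of Egln1 (adjusted p = 0.213) and Ankrd37 (0.0721) and brought Egln3 to 0.42. Without P522, Egln1 (0.683, and also without either of its arrays), Ankrd37 (0.107) and Ndrg1 (0.0731) no longer passed, and without P393 Egln3 did not (0.0984). Kdm3a, a histone demethylase, and Bnip3l, a mitophagy receptor, had largest differences of 0.34 and 0.39 and did not pass (adjusted p = 0.0866 and 0.101).

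**Figure D4:**
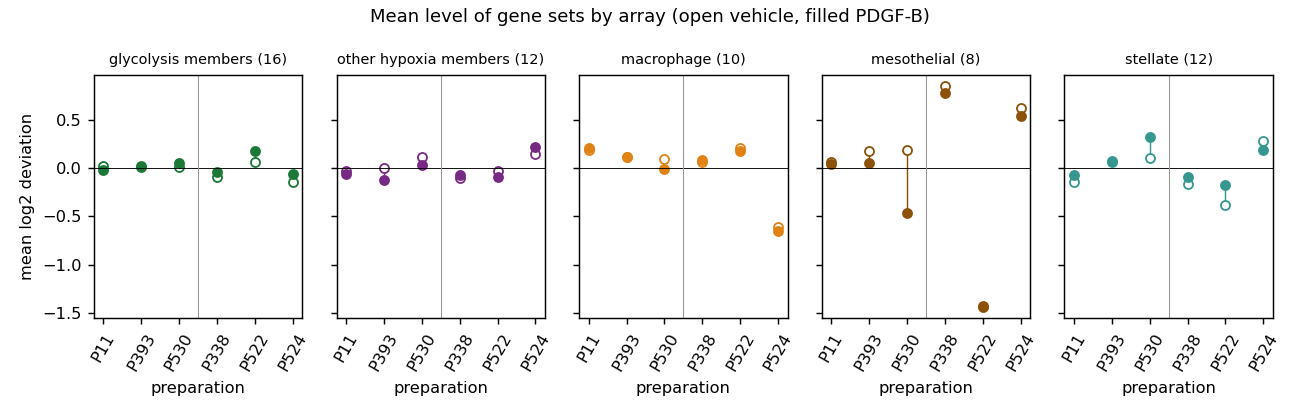
Mean deviation in log2 intensity from the 12-array mean (vertical axis) of the measured genes of 5 lists, with their number in each title, in wild-type (left of the grey line) and knockout preparations (horizontal axis), open points for vehicle and filled for PDGF-B. With the quantile normalization plotted, glycolysis genes average highest in P522 (0.12), which with median scaling is at -0.11, and the other hypoxia genes in P524 (0.18). The mesothelial list is lowest in P522 (-1.44) and the macrophage list in P524 (-0.63). The stellate list is lowest in P522 (-0.28) and highest in P524 (0.24).

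Averaged as lists, glycolysis genes deviated by 0.12 in P522, -0.07 in P338 and -0.11 in P524, and the other hypoxia genes by -0.06, -0.09 and 0.18. The wild-type preparations lay between 0.00 and 0.03 for the first list and between -0.06 and 0.07 for the second. The mesothelial markers were lowest in P522 (-1.44) and the macrophage markers in P524 (-0.63). The stellate markers were lowest in P522 (-0.28) and highest in P524 (0.24). The preparation test called 11 of 12 stellate, 8 of 8 mesothelial and 8 of 10 macrophage markers, against 46.3% of all genes. With median scaling the glycolysis mean was -0.11 in P522, -0.05 in P338 and 0.02 in P524, and the highest was 0.27 in wild-type P393. All genes shifted too under that scaling. Their median difference was -0.21 for P11 minus P393 and 0.17 for P393 minus P530. It was 0.12 for P338 minus P522 and -0.13 for P522 minus P524. The place of P522 at the top of that list thus changed with the normalization, and the part of the shift of all genes was not tested. The mean of the other hypoxia genes was again highest in P524 (0.28), the mesothelial markers lowest in P522 (-1.59) and the macrophage markers lowest in P524 (-0.47) under that scaling. The part of these cells in the result was not tested.

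Further genes of the same pathways were taken from lists written with earlier results of these data known. Of the system that carries the hypoxia signal 6 of 14 passed the preparation test (42.9%), near the 46.3% of all genes, and of other hypoxia targets 21 of 32 did (65.6%). Hif1a, the oxygen-regulated subunit, was higher in P524 than in P522 by 0.34 ± 0.08 (adjusted p = 0.0168, limma), while Epas1, its close relative, was higher in P522 than in P338 by 0.32 ± 0.08 (adjusted p = 0.0217). The coactivator gene Ep300 was higher in P522 than in P524 by 0.97, and Rbx1, a subunit of the ubiquitin ligase that removes the factors, higher in P524 than in P338 by 0.35. Vegfa, the vessel growth factor and a classical target, was higher in P530 than in P393 by 1.24 ± 0.14 (adjusted p = 4.22e-05, limma). Igfbp3 was higher in P338 than in P522 by 2.98, and the collagen crosslinking enzyme gene Lox higher in P530 than in P11 by 1.76. Of further glycolysis genes 7 of 14 passed (50%). Among them the hexokinase gene Hk3 was higher in P522 than in P524 by 1.89 and the glucose transporter gene Slc2a3 higher in P524 than in P522 by 2.26, opposite to Slc2a1. Pkm, pyruvate kinase, did not pass (0.26, adjusted p = 0.0846). Of gluconeogenesis genes 1 of 4 passed, Fbp1 with 0.30 (adjusted p = 0.0414), and Pcx did not (0.15, adjusted p = 0.333). Pdgfra, the other receptor gene, was higher in P393 than in P530 by 1.44. Those of these genes given as higher in a preparation without a p of their own had adjusted p-values of 0.0159 or less (limma). Alternative settings were run for the 28 genes only.

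PDGF-B gave no detectable change in any of the 28 genes. In wild-type cells 0 of 28 passed (0% of all genes), in knockout cells 0 (0% of all genes) and over both genotypes 0 (0% of all genes), by limma with adjusted p under 0.05, and 0 members had an unadjusted p under 0.05 in each. With the preparation as a block there were still 0 calls in each, with lowest adjusted p-values of 0.997, 0.680 and 0.665, while 1, 4 and 3 of the 28 had an unadjusted p under 0.05. These were Ndrg1 in wild-type cells, Slc2a1, Hk1, Pfkl and Aldoc in knockout cells, and Ndrg1, Vldlr and Ddit4 over both. Of all 13091 genes, 300 higher and 317 lower had such a p in wild-type cells. In knockout cells these were 410 and 408, and over both genotypes 444 and 383. In the fit without the block, the 95% intervals in each genotype had a median half-width of 0.37 on the log2 scale, from 0.13 for Slc16a3 to 1.16 for Adm, and those of the response averaged over both genotypes one of 0.26, from 0.09 to 0.82. With the block the median half-width was 0.17 in each genotype, from 0.13 for Gapdh to 0.25 for Bnip3l, and 0.12 for the average.

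The values that follow are from the fit without the block. In wild-type cells the smallest p-values among higher values belonged to Gapdh (0.07 ± 0.09 SE) and P4ha2 (0.11 ± 0.16), and among lower values to Kdm3a (-0.18 ± 0.15) and Pfkm (-0.10 ± 0.08). All 3 pairs went one way in 6 of 28 genes, against 20.9% of all genes. In knockout cells they belonged to Hk1 (0.18 ± 0.09) and Ldha (0.17 ± 0.12), and to Ndrg1 (-0.22 ± 0.25) and Kdm3a (-0.08 ± 0.15). All 3 pairs went one way in 13 of 28, against 31.1% of all genes. Over both genotypes they were Hk1 (0.09 ± 0.07), Ldha (0.12 ± 0.08), Kdm3a (-0.13 ± 0.10) and Ndrg1 (-0.22 ± 0.18). All 6 pairs went one way only for Vldlr, whose differences were -0.37 to -0.04, and 1 of 28 is near the 3.57% of all genes.

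By sign alone, 14 of 16 glycolysis genes had positive differences with PDGF-B in knockout cells, with a median of 0.08, against 49% of all genes. With median scaling this was 10 of 16 against 35.3%. In wild-type cells 9 of 16 glycolysis genes and 2 of 12 other hypoxia genes were positive, against 49.2% of all genes. With median scaling these were 5 of 16 and 2 of 12 against 41%. With the authors' values they were 7 of 16 and 2 of 12 against 49.3%. None of these values passed a test.

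No difference between knockout and wild-type cells was detectable in these genes. Without PDGF-B 0 of 28 passed (0.00764% of all genes) and with PDGF-B 0 of 28 (0.0153% of all genes), with 0 members at an unadjusted p under 0.05 in each, also with the preparation as a random block. The 3 knockout and 3 wild-type arrays separated without overlap for 0 of 28 genes without PDGF-B (6% of all genes) and 0 of 28 with it (5.11% of all genes). Without PDGF-B, Slc2a1 was 9.71 ± 0.21 in knockout and 10.10 ± 0.25 in wild-type cells (SD, n = 3 each), a difference of -0.38 ± 0.22 (SE) with a 95% interval from -0.88 to 0.11. Hk1 (-0.14 ± 0.09), Ndrg1 (0.35 ± 0.25) and Car9 (0.33 ± 0.28) had the other smallest p-values in their directions. With PDGF-B these were Pfkm (0.15 ± 0.08), Tpi1 (0.15 ± 0.09), Vldlr (-0.26 ± 0.37) and Gapdh (-0.04 ± 0.09). Every one of these adjusted p-values was above 0.99 (limma), and the groups overlapped in each case.

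**Figure D5:**
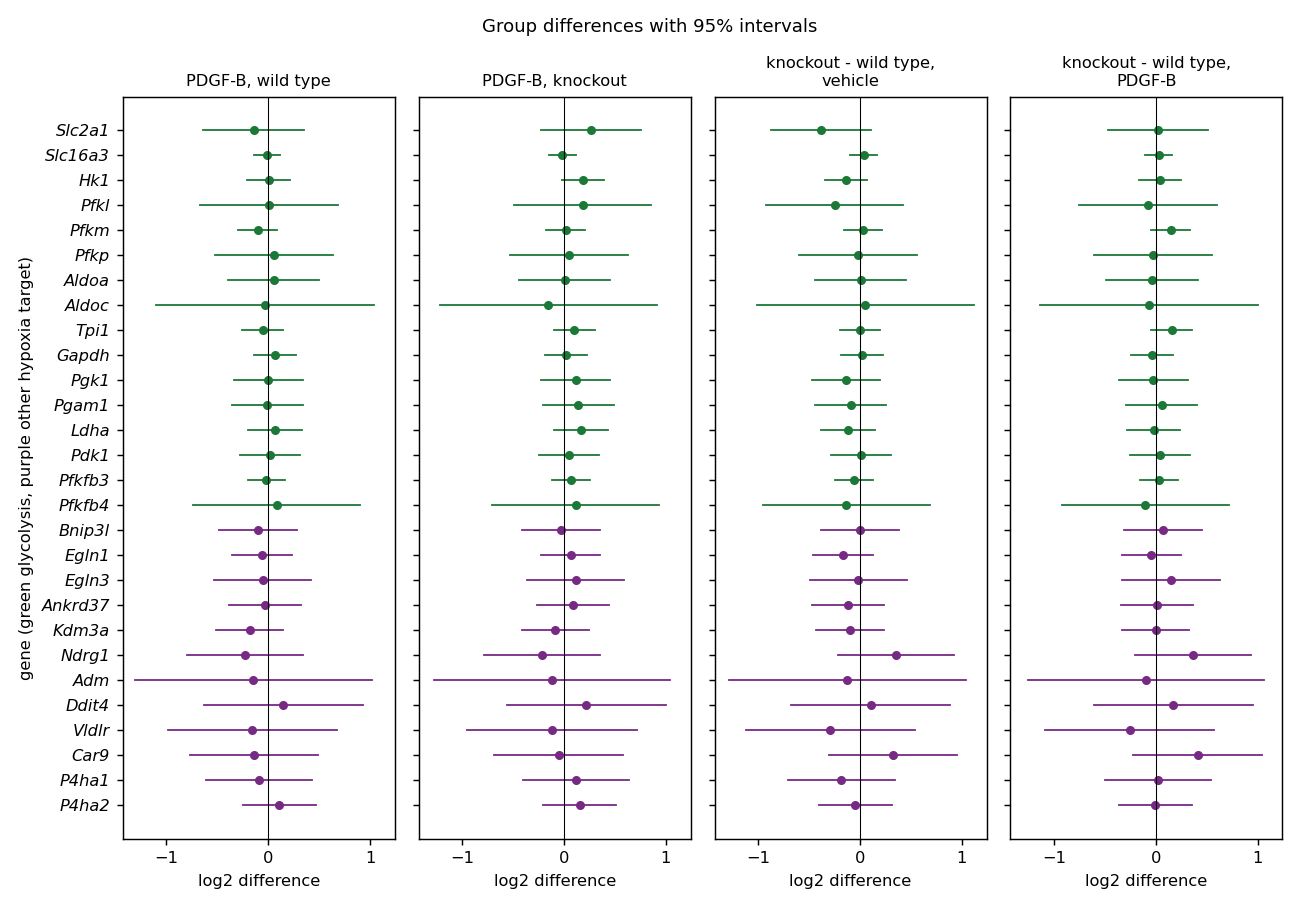
Difference in log2 intensity (horizontal axes) for PDGF-B against vehicle in each genotype and for knockout against wild type with each treatment, with 95% intervals from the fit over 12 arrays, for 28 genes (rows, green glycolysis and purple other hypoxia genes). The fit is the one without the preparation as a block. In it every interval includes 0, and the widest belong to Adm.

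Whether the response to PDGF-B depended on genotype was tested as the difference between the responses, and 0 of 28 genes passed (0% of all genes), with 0 members below an unadjusted p of 0.05, or 1 once the preparation was a block. Slc2a1 came nearest in the blocked fit. PDGF-B differed from vehicle by -0.10, -0.16 and -0.18 in the wild-type preparations and by 0.04, 0.50 and 0.26 in the knockout preparations P338, P522 and P524. The responses differed by 0.41 ± 0.31 (SE, adjusted p above 0.99, limma), and with the preparation as a block the adjusted p was 0.999. Hk1 (0.18 ± 0.13), Gapdh (-0.05 ± 0.13) and Aldoc (-0.12 ± 0.68) had the other smallest p-values in their directions. The knockout minus wild-type value was positive in 12 of 12 other hypoxia genes and 11 of 16 glycolysis genes, and with median scaling in 10 of 12 and 11 of 16, against 50.8% and 45.7% of all genes.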

How the data were processed

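Total RNA of 12 samples was measured on single-colour Illumina arrays. Of the 2 deposited tables, the authors' intensity values before normalization were used here, with their normalized intensity values as an alternative. The latter have column medians of 90.9 to 91.0 on a linear, uncentred scale, and their method is not given in the sources used. Median intensities were 86.2 to 96.2, with 46.8% to 51.9% of 45281 probes above background, and the number of arrays limits the precision. In limma 3.58.1 (R 4.3.3, statmod 1.5.0) a normexp correction with an offset of 50 preceded the log2 transform, and quantile normalization followed it. No detection p-values were in the tables, so background was estimated by mirroring each array's distribution below its mode, and probes with p under 0.05 on at least 3 arrays were kept (25668). The annotation named 1 gene for 34885 probes, several for 18 and none for 10378. The brightest kept probe stood for each of 13091 genes.

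Group means were fitted over all 12 arrays (8 residual degrees of freedom) and tested with eBayes and Benjamini-Hochberg adjustment over all genes at 0.05, in 6 comparisons. Comparisons that share control arrays are not independent. A moderated F test compared preparations of one genotype. The wild-type PDGF-B test, the genotype test without PDGF-B and the preparation test were run on simulated data. Changes of 0.5 on the log2 scale were recovered in 49.3%, 43.3% and 35.8%. Each run also held changes of 1 and 2. False calls over the whole run were 0 of 149, 18 of 158 and 6 of 157. With the preparation as a block the PDGF-B test recovered 80.6% of the changes of 0.5, with 11 false calls of 198. The genotype test with a random block recovered 41.8% of them, with 26 of 170. The shares of false calls in the genotype test, with and without the random block, and in the blocked PDGF-B test were above 0.05. Unlike these data, the run for the preparation test held no other differences between preparations. The codes in the titles pair the arrays: deviations from group means correlated at 0.585 to 0.931 within a code, and each array correlated best with its partner. Residual degrees of freedom drop to 4 where the code is a block. The members, gene lists and marker lists were chosen with earlier results of these data known. Named genes are all members, in each comparison the 2 with the smallest p per direction, and outside the members Hif1a, Epas1, Vegfa, Pkm, Pdgfrb, Pdgfra and up to 2 per pathway list. Alternatives covered background correction, scaling, the authors' values, the probe filter, probes per gene, the variance prior, the arrays fitted, the block, and leaving out arrays or preparations.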

Additional observations from a re-analysis of the deposited data

Results flagged for a closer look

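The response of Slc2a1, the basal glucose transporter gene, to PDGF-B had opposite signs in the genotypes, negative in 3 of 3 wild-type and positive in 3 of 3 knockout preparations. The knockout response exceeded the wild-type response by 0.41 on the log2 scale. The test of that difference did not pass after adjustment over all genes (limma, adjusted p above 0.99, and 0.999 with the preparation as a block, where the unadjusted p was 0.00524).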

How the results depend on the processing

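Over 27 alternative settings, 0 of 4462 member changes in the 6 comparisons passed the threshold, and 475 turned in sign. With the replicate block (paired by preparation code) 0 members passed, the lowest adjusted p being 0.665. Of all genes, knockout against wild type without PDGF-B gave 1 call, and 2 without background correction, with the authors' values, with the mean of probes, with an intensity trend and robust prior, and with the replicate block. Leaving out arrays or preparations gave 0 to 3, with 3 without P522, 2 without the P522 array with PDGF-B and 0 without P11 or P338. With PDGF-B there were 2 calls, but 0 with median scaling or only the groups compared and 1 with genes detected on all arrays, and 0 to 3 on leaving out arrays or preparations, with 0 without P11 or P338 and 1 without P393 or P530 or without a single PDGF-B array of any preparation but P522. The block changed no other call. The preparation test called 19 members, and 11 to 22 on leaving out arrays or preparations (11 without P522), and 6063 genes, then 3660 to 6869 (3660 without P524). Of the 19 calls 8 held in every setting run (Pfkl, Aldoc, Pfkfb4, Adm, Ddit4, Vldlr, Car9 and P4ha1). Median scaling lost 4 and gained 6 (Pfkm, Tpi1, Gapdh, Ldha, Bnip3l and Kdm3a), and the mean of probes lost Pgk1 (adjusted p = 0.0570). The causes were not tested. Slc16a3, Pfkfb3 and Ankrd37 lie near background, which limits their differences. Aldoc, Egln1 and Car9 also reached low raw intensities, with lowest values of 97.5, 106.5 and 109.5 against array medians of 86.2 to 96.2. Without background correction their largest differences were 1.11, 0.29 and 0.84 in size, against 1.36, 0.39 and 1.01 with it.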

Other observations

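Of the 28 measured genes 15 had more than 1 kept probe. In Car9, 2 dimmer probes differed by -0.09 and -0.48 between P522 and P524, where the brightest probe differed by -1.01. In Pgk1 a dim second probe differed by -0.13 between P338 and P522, against -0.47 for the brightest. Probes of Tpi1 and Kdm3a, neither of which passed the preparation test, disagreed in direction. The Tpi1 probes gave 0.24, 0.14 and -0.03 for P11 minus P393, and the Kdm3a probes 0.34, 0.10 and -0.23 for P393 minus P530.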
